A study of Homo sapiens with 1 sample.

Results

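Long peak-free stretches are intervals of an autosome in which no accessible site was listed. They were chosen from the peak list itself: an interval between the end of a peak and the start of the next was a member when it held at least 500 kb of sequence after assembly gap bases (N) were subtracted. Of the 86217 intervals between neighbouring autosomal peaks, 326 met this length, which is 0.378% of the intervals. Together they held 325 Mb, or 11.8% of the 2756 Mb of autosomal sequence that is not N. Absence of peaks is therefore the selection rule and not a result. What follows describes sequence, genes and read placement, which the rule did not use directly. A gene start under a peak cannot lie in a stretch, and a peak needs reads that can be placed. Gene counts and read placement are therefore not independent of the rule.

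The library was an ATAC-seq library of 786-O, a cell line established from a human clear cell kidney carcinoma, and the cells held an empty vector, which made them the control of the study. Only this library was used here and it had no replicate, so all values are descriptions of 1 peak list and no test or p-value is given. The library with DPF3a overexpression is not analysed here. The intervals given in brackets after shares are exact binomial 95% intervals, which cover counting error only; neighbouring stretches and genes are not independent.

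In ATAC-seq the Tn5 transposase cuts and tags DNA that is not packed tightly into nucleosomes, and peaks mark promoters, enhancers and insulator sites. Chromosome segments with few genes, often AT-rich, are commonly held in closed chromatin at the nuclear periphery, and clusters of genes used in a single tissue, such as odorant receptors, are commonly closed elsewhere. A segment can also lack peaks because its reads cannot be assigned to a single place: satellite repeats of centromeres and recent duplications are examples, and so are segments for which the reference carries an alternative sequence (a second version of a variable locus).

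Read placement was therefore measured first. Read pairs of 2 reads with 150 bases each were cut from the reference every 2 kb, with a fragment length of 300 bases, and aligned back to it. A pair was counted as placed when both reads returned to their origin with a mapping quality of at least 30. After the values had been seen, the stretches were divided into 3 kinds. In 275 stretches, called placeable below, at least 50% of the pairs were placed and less than 50% of the bases had a copy among the 261 alternative sequences. In 28 stretches, called repeated, less than 50% of the pairs were placed even when the alternative sequences were left out of the reference. The other 23 are called copied.

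Windows of 100 bases from the middle of 3 stretches show the difference between the kinds: the longest with at least 80% of pairs placed, the longest copied and the longest repeated one, with CpG dinucleotides in capitals. They are on the plus strand of hg38, at chr13:55190463-55190562, chr16:15983199-15983298 and chr18:17974480-17974579.
Placeable stretch, chromosome 13: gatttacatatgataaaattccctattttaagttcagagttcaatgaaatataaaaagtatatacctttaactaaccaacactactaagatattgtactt
Copied stretch, chromosome 16: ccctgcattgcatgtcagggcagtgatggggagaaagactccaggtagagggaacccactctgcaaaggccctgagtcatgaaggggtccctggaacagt
Repeated stretch, chromosome 18: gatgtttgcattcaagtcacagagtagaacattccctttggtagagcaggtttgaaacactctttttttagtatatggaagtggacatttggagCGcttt
The window of chromosome 13 had 24.0% GC and occurred once in the primary sequence. The window of chromosome 16 occurred once there and once more in an alternative sequence. The window of chromosome 18, from a stretch that spans the centromere, had 1047 exact copies in the primary sequence.

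Promoters in the stretches were as different as the windows. The 250 bases before the RefSeq transcript start (GRCh38.p14) are shown for 4 genes that stand for the groups described below, again with CpG in capitals: RPS18, a ribosomal protein gene in a copied stretch, IRX1, a developmental transcription factor gene in a placeable stretch, PRR20A, of a cluster of near-identical genes, and OR5I1, an odorant receptor gene.
RPS18, chr6:33271825-33272074, plus strand: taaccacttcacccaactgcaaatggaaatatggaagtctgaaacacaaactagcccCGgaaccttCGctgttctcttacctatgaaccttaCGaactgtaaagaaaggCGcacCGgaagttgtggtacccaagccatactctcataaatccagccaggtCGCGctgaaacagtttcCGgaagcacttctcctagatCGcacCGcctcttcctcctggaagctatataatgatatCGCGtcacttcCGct
IRX1, chr5:3595582-3595831, plus strand: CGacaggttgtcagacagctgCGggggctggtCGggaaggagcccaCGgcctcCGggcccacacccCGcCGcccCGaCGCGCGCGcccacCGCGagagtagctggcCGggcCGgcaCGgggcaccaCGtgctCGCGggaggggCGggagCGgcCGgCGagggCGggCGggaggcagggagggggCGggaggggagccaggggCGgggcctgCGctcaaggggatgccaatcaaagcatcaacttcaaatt
PRR20A, chr13:57140668-57140917, plus strand: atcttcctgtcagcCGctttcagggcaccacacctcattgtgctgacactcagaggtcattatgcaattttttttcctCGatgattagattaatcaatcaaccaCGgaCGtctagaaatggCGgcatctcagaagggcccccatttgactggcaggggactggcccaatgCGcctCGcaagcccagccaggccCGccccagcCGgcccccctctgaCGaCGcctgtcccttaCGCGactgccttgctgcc
OR5I1, chr11:55936401-55936650, minus strand: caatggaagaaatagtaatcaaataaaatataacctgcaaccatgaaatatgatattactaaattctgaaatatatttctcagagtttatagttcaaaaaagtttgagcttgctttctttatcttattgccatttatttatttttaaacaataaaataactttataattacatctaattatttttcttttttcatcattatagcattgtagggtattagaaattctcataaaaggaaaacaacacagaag
These windows held 13, 29, 13 and 0 CpG, beside a median of 11 over 33725 autosomal promoters of the same table. At least as many CpG as before IRX1 were found in 14.3% of those promoters, and at least as many as before RPS18 in 46.8%.

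The stretches had a median length of 709 kb, with quartiles at 569 and 1029 kb, and 84 of them reached 1 Mb. The longest interval left out by the rule had 497.9 kb (chromosome 10) and the shortest one kept had 500.5 kb (chromosome 2), so the limit fell within a continuous range of lengths. An assembly gap lay in 46 stretches. Placeable stretches were shorter, with a median of 665 kb and 50 of 275 at 1 Mb or more, whereas repeated ones had a median of 2411 kb and 22 of 28 reached 1 Mb. By bases, the placeable kind held 223 Mb (68.7%), the repeated kind 69.9 Mb (21.5%) and the copied kind 31.9 Mb (9.83%).

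**Figure D1:**
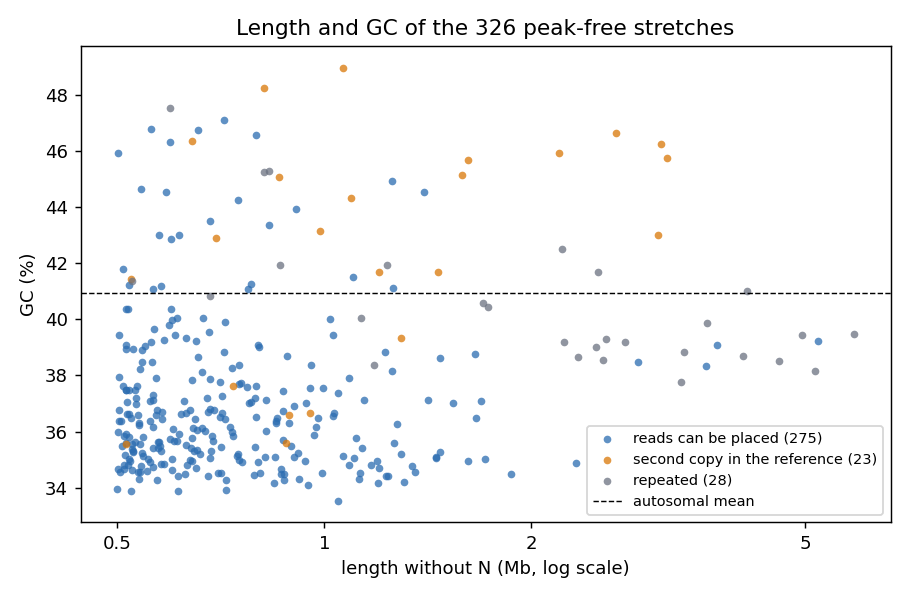
Length without N in Mb (log scale) against GC in percent, 1 point for each stretch, coloured by kind (blue, reads can be placed; orange, a second copy in the reference; grey, repeated); the dashed line is the autosomal mean of 41.0%. Most blue points lie below the line, the orange points have a median of 43.2% and the longest stretches are mostly grey.

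The stretches were AT-rich. Their median GC content was 36.7%, between 33.5% and 49.0%, and 275 of 326 (84.4% [79.95 to 88.1]) lay below the autosomal mean of 41.0%. In the placeable kind 250 of 275 lay below it (90.9%), in the repeated kind 19 of 28 and in the copied kind 6 of 23 (26.1%). Most placeable stretches thus lay below the autosomal mean, and most copied ones above it.

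GC content fell step by step with the length of the interval. Pooled over bases it was 43.2% in intervals under 50 kb, 40.2% between 50 and 200 kb, 38.5% between 200 and 500 kb and 38.3% in the stretches. Among placeable stretches alone it was 37.0%. Within these, length and GC had no visible relation (Spearman's rank correlation −0.07 over 275 stretches, a description).

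The low GC did not begin at the edges. In bins of 25 kb around the edges of placeable stretches, the median GC was 36.9% in the last bin outside and 36.3% in the first bin inside. At 175 to 200 kb outside it was 36.7%, and at the same distance inside 36.3%. The surroundings of a stretch were thus nearly as AT-rich as the stretch. Edges with another stretch close by were kept, so some outside bins lay within a neighbouring stretch.

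**Figure D2:**
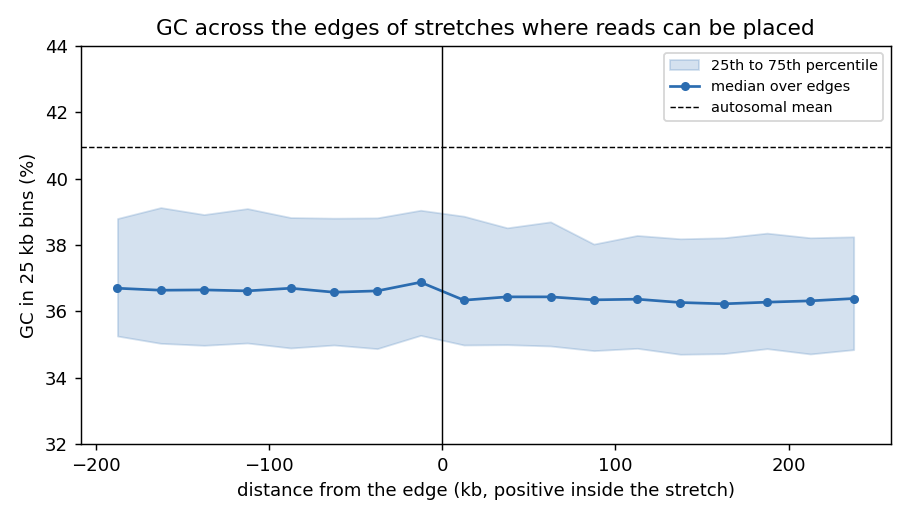
GC in percent in bins of 25 kb against the distance from the edge of placeable stretches in kb (negative outside, positive inside); points are medians over 544 to 550 edges, the band spans the 25th to the 75th percentile, and the dashed line is the autosomal mean. The medians stay between 36.2% and 36.9% on both sides, below the mean of 41.0%.

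The kinds were defined by read placement, so their values of it are a description. Over all autosomes 94.1% of 1378061 pairs were placed, and 99.5%, 98.1% and 93.1% in the 3 shorter classes of intervals. In the stretches it was 70.95%, and 79.5% when alternative sequences were left out of the reference. In copied stretches 13.3% of the pairs were placed with the full reference and 87.3% without the alternative sequences. In repeated stretches both values were low, 26.1% and 27.2%, and 25 of the 28 held an assembly gap. These 51 stretches were flagged as poorly placeable, and for them the lack of peaks cannot be told apart from the lack of placed reads.

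**Figure D3:**
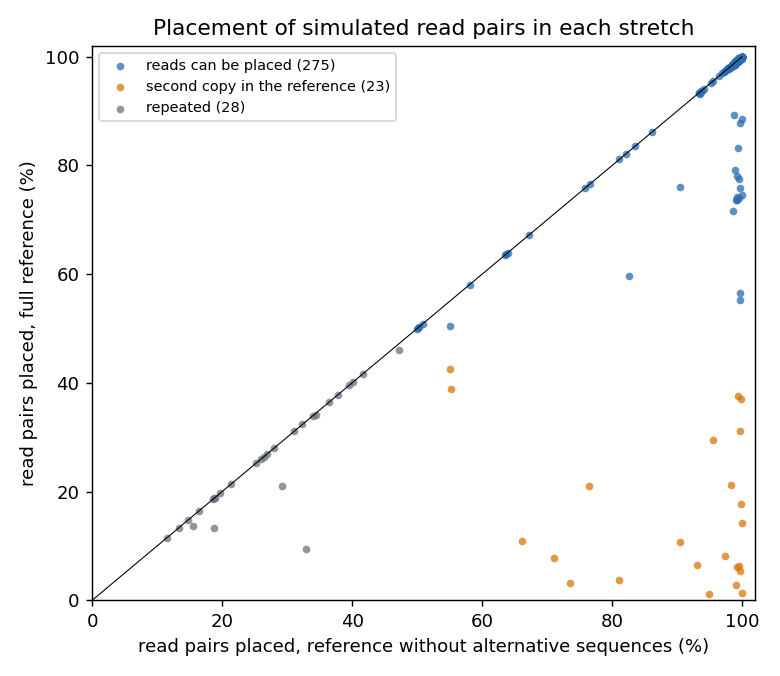
Share of simulated read pairs placed in each stretch with the full reference (vertical axis, percent) against the share without alternative sequences (horizontal axis, percent), 1 point for each stretch, coloured by kind. Blue points crowd at the upper right, grey points follow the diagonal below 50%, and orange points lie far under the diagonal.

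Placement in the placeable kind was not complete. It reached 90% or more in 241 of the 275 stretches and was under 80% in 26. The 3 longest placeable stretches, at or beside the centromeres of chromosomes 10, 11 and 12, passed the limit narrowly with 50.5%, 50.8% and 50.4%.

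The alternative sequences had few peaks themselves. They were among the sequences that carried peaks, so they were part of the reference the reads were aligned to, yet their 100.7 Mb held only 26 peaks, or 0.258 per Mb, beside 31.3 per Mb on the autosomes. This density covers all alternative sequences and was not split by the stretches they match.

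The chromosomes differed in how much of them was peak-free. The share of bases in stretches of any kind was highest on chromosome 21 (28.5%) and chromosome 18 (21.0%) and lowest on chromosome 22 (4.72%). On chromosome 21 most of it was repeated sequence (17.9% of the chromosome). In placeable stretches alone, chromosomes 11, 13, 14 and 18 held the largest shares, 14.8%, 14.3%, 14.2% and 13.6%. The share of chromosome 11 includes the stretch of 5.22 Mb beside its centromere, where 50.8% of pairs were placed. The smallest placeable shares were on chromosomes 19 (2.35%), 1 (3.02%), 22 (3.19%) and 7 (3.28%). For chromosomes 3 and 9 the placeable share was 9.68% and 5.82%.

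**Figure D4:**
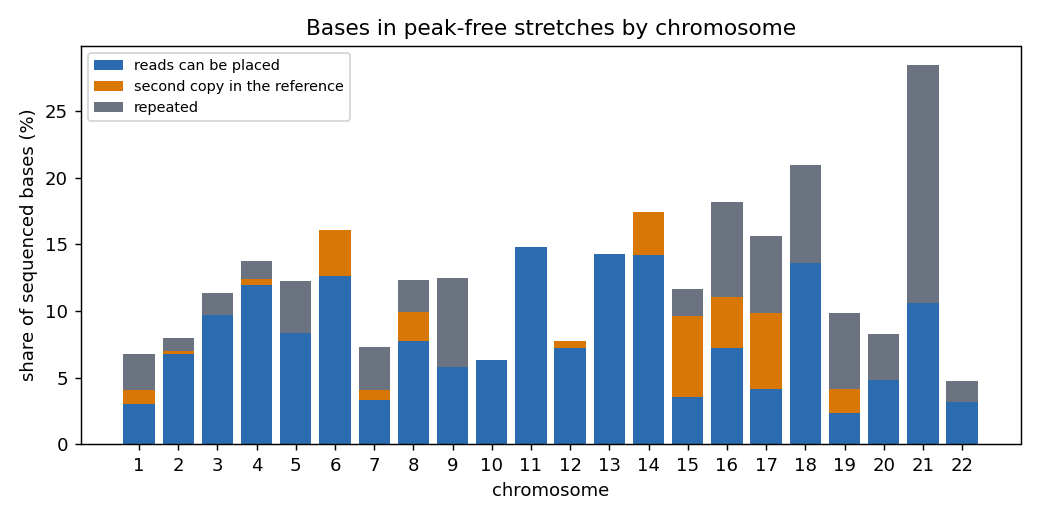
Share of the sequenced bases of each autosome that lay in peak-free stretches, in percent, stacked by kind. Chromosomes 11, 13, 14 and 18 have the tallest blue parts, chromosome 21 the tallest grey part, and chromosome 15 the tallest orange part (6.07%).

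The longest stretches lay at or beside centromeres. The 10 longest ran from 3.59 to 5.88 Mb, and 7 of them were of the repeated kind. On chromosome 18 (chr18:14977207-20971852, 5.88 Mb) 18.6% of the pairs were placed, and the only protein-coding gene with a start inside was ROCK1, a protein kinase gene, through an alternative start, its main start lying outside the stretch with a peak. On chromosome 11 (chr11:50080648-55658062, 5.22 Mb) 11 coding genes started, 10 of them odorant receptor genes and the other TRIM48. No coding gene started in the stretch of chromosome 7 (chr7:57540945-63015669, 5.17 Mb). On chromosome 21 (chr21:8420594-14027133, 4.96 Mb) TPTE and POTED, genes with recent duplicates, were inside. The stretch of chromosome 5 (chr5:45578612-50303023) had 4.57 Mb with 28.0% of pairs placed. The stretch of chromosome 17 (chr17:21690051-25920060) held KCNJ18, a potassium channel gene, and that of chromosome 9 (chr9:43270737-62800030) held CNTNAP3C, SPATA31A5 and SPATA31A7. Those of chromosomes 12, 1 and 10 (3.72, 3.6 and 3.59 Mb) held no coding gene start.

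Among the 10 longest stretches with at least 80% of pairs placed, 5 held no coding gene start and the other 5 held 1 to 9. The longest (chr13:54029975-56351050, 2.32 Mb) lay 978 kb from the start of OLFM4 and 790 kb from that of PRR20A, had 34.9% GC and 99.9% of pairs placed, and held no coding gene start, 7 lncRNA genes and 4 pseudogenes. Its bounding peaks had folds of 38.6 and 15.5 over the genome-wide background of the peak caller, well above the lowest fold of 5.15. The next (chr5:84697064-86565233, 1.87 Mb, between EDIL3 and COX7C) held none either. The stretch of chromosome 6 (chr6:91704901-93419157, 1.71 Mb) held an alternative start of EPHA7, an ephrin receptor gene whose main start lay just outside with a peak. Those of chromosome 16 (chr16:59632553-61295314, 1.66 Mb), chromosome 21 (chr21:18840486-20459813, 1.62 Mb) and chromosome 14 (chr14:81534403-83072056, 1.54 Mb) were without a coding start. That of chromosome 14 began 0.549 kb from SEL1L, a gene of protein quality control in the endoplasmic reticulum, at a peak of fold 60.8.

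Stretches often stood side by side. When stretches at most 100 kb apart were joined, 85 of the 326 fell into 36 runs, 12 of them of 3 or more. On chromosome 11 (chr11:48308233-56624569) 3 stretches summed to 7.87 Mb with 4 peaks between them. On chromosome 13 (chr13:54029975-59085870) 3 summed to 5.01 Mb with 3 peaks between. On chromosome 14 (chr14:25152007-28515457) 4 summed to 3.27 Mb with 5 peaks between. The rule thus cut several larger segments at a few isolated peaks.

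Genes were sparse in the placeable stretches and dense in the copied ones. Of the 19111 autosomal protein-coding genes, 903 (4.73%) had a transcription start site (TSS) in a stretch, 813 of them with every TSS inside. Counting genes in each stretch, the 23 copied stretches held 466 of 913, the placeable ones 335 and the repeated ones 112. Counted by main (canonical) TSS per Mb, placeable stretches had 1.26, repeated ones 1.52 and copied ones 14.4, beside 3.74, 2.64 and 2.18 in the intervals under 50 kb, of 50 to 200 kb and of 200 to 500 kb. No coding TSS lay in 163 of the 326 stretches (50.0% [44.4 to 55.6]) and in 150 of the 275 placeable ones (54.5%). Neither a coding nor a lncRNA gene started in 24. The stretches also held the starts of 1319 lncRNA genes, 2012 pseudogenes and 111 miRNA genes.

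The most gene-rich stretches were mostly of the copied kind. The first (chr6:29953277-32609820) held 117 coding genes of the major histocompatibility complex, with 8.13% of pairs placed, or 97.4% without alternative sequences. Its neighbours (chr6:28491940-29952980 and chr6:32668773-33529580) held 28 and 36. The 3 together left 4 peaks in 5.04 Mb. The second (chr17:35764788-38853110, 3.76% of pairs placed) held 56, among them the CC chemokine genes CCL3, CCL4 and CCL5. A stretch of chromosome 19 (chr19:54020721-55086793, 2.81%) held 42, including the KIR and LILR receptor genes of leukocytes.

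The other stretches rich in genes followed the same pattern with 2 exceptions. On chromosome 11 (chr11:55658357-56624569) 38 genes started in a placeable stretch with 79.1% of pairs placed, and 36 of them were odorant receptor genes. On chromosome 8 (chr8:7355447-8235370) 35 started in a repeated stretch of beta-defensin and FAM90A genes. The copied ones were those of chromosome 16 (chr16:14409894-17556603, 24 genes, with NPIPA copies, ABCC1 and MYH11), chromosome 14 (chr14:92846913-94433965, 24 genes, with the SERPINA1 group), chromosome 1 (chr1:12852260-13543990, 23 genes, mostly PRAMEF), chromosome 15 (chr15:29925092-32979606, 23 genes, with GOLGA8 copies) and chromosome 12 (chr12:10750596-11486504, 23 genes, with the bitter taste receptors).

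Gene families were spread unevenly over the stretches, beside the 4.73% of all coding genes. A member with any TSS in a stretch was counted as inside. Odorant receptor genes, which encode receptors of the olfactory epithelium, had 116 of 414 members inside (28.0% [23.7 to 32.6]), in 9 stretches, and 95 of them were in placeable stretches. The stretches of chromosome 11 held 36, 10 and 5 of them, those of chromosome 1 held 19 and 13, and that of chromosome 17 held 12. Placement in these was uneven. In the same order, 79.1%, 50.8% and 97.3% of pairs were placed on chromosome 11. On chromosome 1 it was 59.7% and 99.4%, and on chromosome 17 it was 93.3%. Of the 298 odorant receptor genes outside the stretches, 3 had a promoter peak (1.01%), beside 65.2% of all coding genes outside. Inside, the lack of peaks follows from the rule.

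Several families had most of their inside members in copied or repeated stretches. Of the HLA genes, which present antigens, 17 of 19 were inside, of the PRAMEF genes 19 of 22, and of the bitter taste receptor genes 15 of 24, all in copied stretches. The V segments of the immunoglobulin loci had 70 of 145 inside, 1 of them in a placeable stretch, and those of the T cell receptor loci 48 of 107, all in 1 copied stretch of chromosome 7. GOLGA genes had 15 of 36, UGT2 glucuronosyltransferase genes 4 of 10 and ADAM genes 4 of 20 inside, with none in a placeable stretch. Beta-defensin genes had 15 of 40 inside, 13 of them in a repeated stretch and 2 in a placeable one. USP17L genes, a group of deubiquitinase copies, had 4 of 26 inside, 2 in a repeated stretch and 2 in that placeable stretch, where 63.7% of pairs were placed.

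Other families were inside mainly through the placeable kind. Contactin and CNTNAP genes, which encode adhesion proteins of axons, had 8 of 13 inside, 7 of them in placeable stretches. Only 3 of these 8 had every TSS inside. Glutamate receptor genes had 4 of 26 (15.4% [4.36 to 34.9]), an interval that includes the share of all coding genes. Of these 4, 1 had every TSS inside. Protocadherin genes had 3 of 63 (4.76%; PCDH17, PCDH18 and PCDH20) and potassium channel genes 4 of 93 [1.18 to 10.7], both near that share. TRIM genes had 20 of 77, 12 in placeable stretches and 8 in copied ones. Zinc finger genes had 14 of 503 inside (2.78% [1.53 to 4.63]). The listed families without a member inside were keratins, keratin-associated proteins, late cornified envelope and SPRR genes, type I interferons, SERPINB, LRRTM, LRFN and LRRN genes, sodium channels, MS4A, ADH, SLCO, SLC22 and KLK genes, C-type lectins, semaphorins, glypicans, vomeronasal receptors, replication-dependent histones and RNA polymerase II subunits. For the 94 keratin-associated protein genes the interval ends at 3.85%, below the share of all coding genes, and for each of the others it includes that share. Neighbouring genes are not independent, so the intervals of families do not test a difference from that share.

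**Figure D5:**
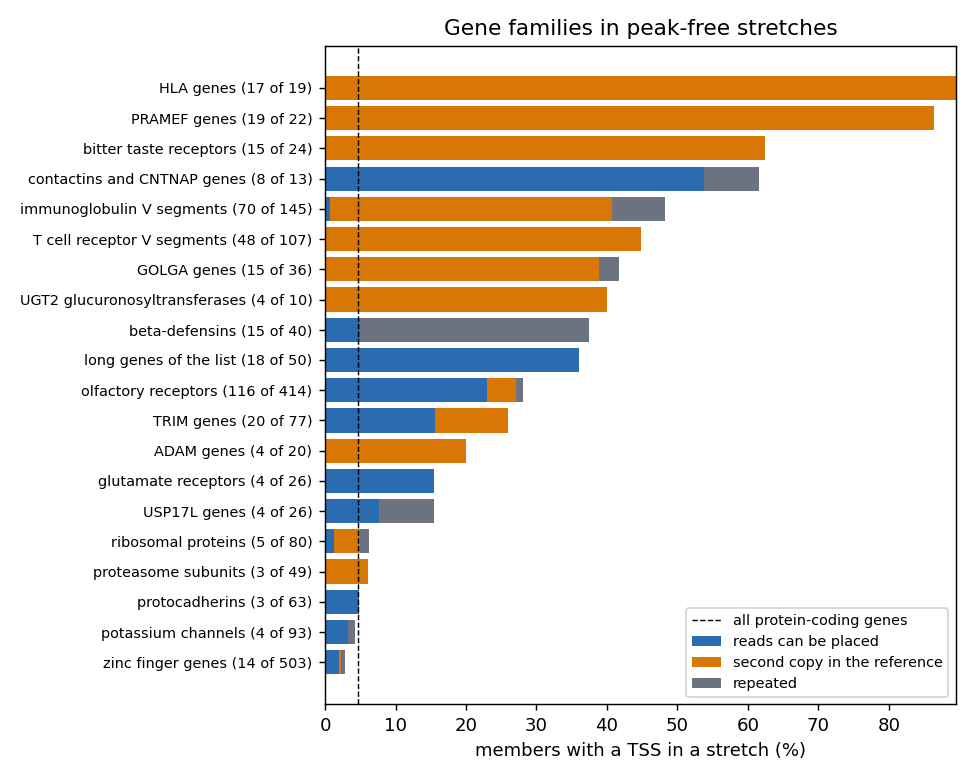
Share of the members of each gene family with a TSS in a stretch, in percent, stacked by kind of stretch, for families with 3 or more members inside; the dashed line is the share of all protein-coding genes, 4.73%. HLA, PRAMEF and bitter taste receptor bars are wholly orange, contactins mostly blue, and zinc finger genes lie left of the line.

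Ribosomal protein and proteasome genes, most of which are used in every cell, were counted as well. Since a main TSS inside a stretch cannot have a peak at it except at the very edge, the lack of a peak in those members follows from the rule. Of 75 ribosomal protein genes without a TSS in a stretch, 72 had a promoter peak (96.0%), and of 46 such proteasome genes 44 (95.7%). RPS18 and RPS9 lay in copied stretches with 6.28% and 2.81% of pairs placed and had no promoter peak. PSMB8 and PSMB9, of the immunoproteasome, and PSMB3, a core subunit gene, lay in copied stretches too and had none. RPS15A and RPL23 only touched a stretch with an alternative start and had a promoter peak 90 and 42 bp from the main TSS. RPL10L, a testis copy of RPL10, was the only ribosomal gene in a placeable stretch, and had no peak.

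Parts of long genes lay in the placeable stretches. Gene bodies of coding genes covered 17.3% of the placeable bases, beside 56.2% in intervals under 50 kb, and 24 placeable stretches lay to more than 90% within gene bodies. Of the coding genes, 928 overlapped a stretch, 800 of them wholly inside and 128 across an edge. A promoter peak was present for 61 of those 128 (47.7%), beside 62.3% of all coding genes. Among 50 listed long genes, 20 overlapped a stretch, 6 of them with more than 50% of their length.

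CSMD1, a large membrane protein gene of the brain, had the most bases in stretches, 1409 kb or 68.4% of the gene, with 3 peaks in 2060 kb. DPP10, a subunit gene of potassium channels, had 1144 kb (81.5%). Neither of them had a promoter peak. DLGAP2, a scaffold gene of synapses, lay wholly in a copied stretch (970.8 kb). CDH12, a cadherin gene, had 896.8 kb (81.3%) and RBFOX1, a splicing factor gene of neurons, 835.7 kb (33.8%) with 31 peaks elsewhere in its 2474 kb. CNTN4 (830.4 kb), DCC, a netrin receptor gene (818.6 kb), AGBL4 (794.0 kb) and ADGRL3 (756.6 kb) were the others named. Of these genes AGBL4 had a promoter peak, and the other 8 had none. Every gene named here had a TSS in a stretch. At such a TSS the lack of a peak follows from the rule.

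GC-rich promoters, those with at least 55% GC and a CpG observed to expected ratio of at least 0.6 within 500 bp of the TSS, were few in the placeable stretches. They made up 51 of 281 main promoters there (18.1% [13.8 to 23.2]), beside 60.7% of all coding promoters. The latter include promoters whose TSS lay under a peak, which the rule keeps out of stretches. In the shorter intervals between peaks the share was 31.3% (under 50 kb), 32.05% (50 to 200 kb) and 35.2% (200 to 500 kb). Outside the stretches, 8092 of 11349 such promoters had a peak (71.3%) and 29.3% of the other promoters did. In the placeable stretches 234 of 275 held no GC-rich promoter and 36 held exactly 1.

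Among the 51 GC-rich promoters were those of transcription factor genes and of genes known from neurons. How many of the 51 belong to these groups was not counted. Others were those of PRR20A to PRR20E, NOX4, SMOC2 and NUPR2. IRX1 (75.3% GC within 500 bp, nearest summit 53.4 kb away) and SALL3 (80.4%, 177 kb) encode transcription factors. KCND3 and KCNA4 encode potassium channels, GAD2 the enzyme that makes GABA, GRM5 a glutamate receptor and NOVA1 a splicing factor of neurons. CNTN3 (68.8%) was 671 kb from the nearest summit. In TAFA5 (80.2%) the nearest summit was 3.04 kb away. These genes were chosen for mention after their values were seen, and the absence of a peak follows from the rule.

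Stretches that hold several GC-rich promoters without a peak, although reads can be placed, were flagged as candidates for absent DNA. With at least 3 such promoters and at least 80% of pairs placed, 2 stretches were flagged. In the first (chr13:56351493-57582085, 1.23 Mb, 96.4% of pairs placed) all 5 belonged to PRR20A to PRR20E, the cluster whose promoter is printed above. Of the 15 read pairs cut every 2 kb across the cluster (chr13:57140918-57170218) 0 were placed at these settings. Placement at the promoters that raised the flag was not measured separately. The second (chr19:56601701-57191239, 589.5 kb, 99.7% placed) held SMIM17, ZNF835, and PEG3 and ZIM2, which share a TSS and are imprinted, that is, used from the paternal copy. The 146 peaks within 2 Mb of it had a median fold of 15.2, beside 11.3 on chromosome 19. Around the first flagged stretch only 10 peaks lay within 2 Mb. Their median fold was 7.21, beside 10.3 on chromosome 13. Whether DNA was absent from either stretch was not tested, since read depth outside peaks was not analysed here.

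Over all placeable stretches the flanks were mostly lower than the chromosome. The median fold of peaks within 2 Mb had a median of 9.79 over the 275 stretches, and it lay below that of the whole chromosome in 182. At CDKN2A, a cell cycle inhibitor gene named here after the values were seen (chr9:21967752-21995301), the interval without a peak had 243 kb, under the limit, although 99.2% of its pairs were placed; whether this DNA was present was not tested. VHL, the tumour suppressor gene of this cancer, lay for most of its length in an interval of 22.1 kb and had a promoter peak.

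The peaks that bound the stretches were weak and narrow. The 620 edge peaks had a median fold of 7.73 (quartiles 5.67 and 12.4), beside 10.8 over all autosomal peaks, and a median width of 396 bp beside 522 bp. A summit in a promoter was found for 78 of them (12.6% [10.1 to 15.4]), beside 19.4% of all peaks. Edge peaks thus had a lower median fold, a smaller median width and a smaller share at promoters. Near the lowest fold a peak may be called or missed with few reads.

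The motifs of the edge peaks were searched on both strands within 50 bases of the summit. The core of the motif of CTCF, an insulator protein, was found in 38 of 620 (6.13% [4.37 to 8.32]), beside 3.63% of all autosomal peaks. The AP-1 motif (TGANTCA) was found in 124 of 620, and in 19.96% of all autosomal peaks, and the SP/KLF motif (GGGGCGGGG) in 4 (0.645%) beside 1.54%. A match is a description of the letters and not a bound site.

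Of the edge peaks, 32 stood alone between 2 stretches. Their median fold was 6.70, the AP-1 motif was found in 3 and the CTCF core in 2. The windows around the summits of the 3 with AP-1 are shown on the plus strand of hg38, with the motif in capitals, as examples of called sites that part neighbouring stretches.
Chromosome 5, chr5:105508662-105508762, fold 6.70: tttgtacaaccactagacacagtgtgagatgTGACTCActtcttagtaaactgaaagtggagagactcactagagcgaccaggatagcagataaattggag
Chromosome 9, chr9:24464487-24464587, fold 6.18: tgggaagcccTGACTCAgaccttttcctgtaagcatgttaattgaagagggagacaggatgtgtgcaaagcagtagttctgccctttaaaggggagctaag
Chromosome 11, chr11:55658134-55658234, fold 5.15: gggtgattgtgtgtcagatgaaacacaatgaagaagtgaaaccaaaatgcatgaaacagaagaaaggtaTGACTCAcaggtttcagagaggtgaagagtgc
The site of chromosome 11 stood between the centromeric stretch and the odorant receptor cluster with 36 genes. All 3 folds lay below the median of 7.73 of the edge peaks.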

How the data were processed

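The sample was an ATAC-seq library of 786-O cells with empty vector, sequenced as paired reads. Per the labels and the study's methods, the authors used fastp for trimming and Bowtie2 2.3.4.3 for alignment to hg38, removed mitochondrial reads, duplicates and reads with mapping quality under 30, and called peaks with MACS2 2.2.6 against a genome-wide background. The deposited fold enrichment is the ratio of summit pileup to background. The deposited score, of which the lowest was 52, is derived from the deposited −log10 q-value, which stands beside a −log10 p-value. The total number of reads is unknown, so depth between peaks was not assessed.

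Intervals between 86239 autosomal peaks were computed in hg38, and genes were taken from GENCODE 44. The members, gene families and rules were chosen with earlier results of these data known, and the kinds of stretch, joined runs and genes marked so were chosen after the values were seen. The named items were the 10 longest stretches, the 10 with most coding genes, flagged stretches, the 10 genes with most bases and families with at least 3 members inside; a few genes that this rule names are not reported here. Simulated pairs were aligned with minimap2 2.31, whose mapping quality is not on the scale of Bowtie2. A copy among the alternative sequences had to align over 10 kb or more and differ by 5% or less. A promoter peak was a summit from 1 kb upstream to 100 bp downstream of any TSS. Python 3.11.15 with numpy 2.4.6, pandas 2.3.3, scipy 1.17.1, pyfaidx 0.9.0.4 and matplotlib 3.10.9 was used, with samtools 1.23.1. The functions were tested on simulated data. Alternatives changed the peak score, the minimum length, the treatment of N, the bases counted, chromosome ends, TSS and flag limits.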

Additional observations from a re-analysis of the deposited data

Results flagged for a closer look

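The alternative sequences of the reference, which are no autosomes and entered no interval, held 26 peaks. This was a signal in data outside the main measurement, at 0.258 peaks per Mb beside 31.3 per Mb on the autosomes. No control sample was available for it.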

How the results depend on the processing

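With 1 library no replicate could be left out. No paired analysis was possible because the data come from 1 library. Of 68 alternative values, 34 stayed within 1.5 times the reported count or within the 95% interval of the reported share, and 34 did not. With only peaks of a score above 100 there were 541 stretches with 532.6 Mb, 39.6% without a coding TSS, 33.3% of odorant receptor genes and 5 stretches flagged for GC-rich promoters. Above 200 these were 763, 774.9 Mb, 29.4%, 38.4% and 15, with 1879 coding genes. A minimum of 250 kb gave 1178 stretches, 613.2 Mb, 1702 coding genes, 117 poorly placeable stretches and 42.0% of odorant receptor genes. A minimum of 1 Mb gave 84, 164.5 Mb, 468 coding genes and 8.70%, with GC below the mean in 77.4%, no coding TSS in 41.7% and 1 GC-rich flag. Requiring 500 kb of placeable bases gave 288 coding genes, 15 poorly placeable stretches, 91.4% below the mean GC and 15.5% of odorant receptor genes. Adding chromosome ends gave 33.1% of odorant receptor genes. With canonical TSS, 62.0% were without a coding TSS. A limit of 80% flagged 77 stretches for placement, and a limit of 2 promoters flagged 4. In placeable stretches alone, an alternative added after the values were seen, 90.9% lay below the mean GC and held 326 coding genes and 22.9% of odorant receptor genes. The share of edge peaks with a CTCF core was 6.41% without the edges of flagged stretches. The depth of the library limits what the absence of a peak can show. The lowest score in the peak list was 52, so weaker sites are not listed, whether or not they passed the caller's threshold. The paper describes a minimum score for its ChIP-seq peaks. For ATAC-seq it gives a q-value limit of the caller and no minimum score. Whether weaker peaks had been removed from this list was not tested.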
